A study of Homo sapiens with 12 samples.

Results

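The cyclins, the cyclin-dependent kinases (CDKs) they activate and the proteins that restrain or release these kinases were followed in the cytoplasmic RNA of cells depleted of 3 factors of mRNA export. The members were 41 genes of 27522 gene names on the array. They were the listed genes to which the accession of at least 1 probe led in the RefSeq gene table, and 56 probes belonged to them. They were read in 6 classes, namely 8 G1 cyclins and CDKs, 5 S/G2/M cyclins and CDK1, 12 transcriptional cyclins and CDKs, 6 CDK inhibitors, 6 CDK phosphatases and inhibitory kinases, and 3 genes for SKP2 and the CKS proteins, with CDK5 on its own.

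U2OS cells, an established human osteosarcoma line, were transfected with 20 nM siRNA by a lipid reagent and, per the study's methods, cultured for 48 h before the cytoplasmic fraction was taken. The 4 groups were control siRNA and siRNA against DBP5, GLE1 or IPPK, with 3 one-colour arrays each. All groups, control included, carried an siRNA and the transfection reagent. DBP5 is the RNA helicase encoded by DDX19B that remodels mRNA-protein particles at the nuclear pore, GLE1 is its activator, and IPPK is the kinase that makes inositol hexakisphosphate (IP6), the cofactor of GLE1. The study asked whether the 3 factors have the same effect on cytoplasmic mRNA. The methods list a single siRNA against DBP5, and which of the control, GLE1 and IPPK siRNAs was used on the arrays is not given in the sources used here.

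A typical cyclin rises and falls through the cell cycle and lends its kinase activity and target choice. D-type cyclins with CDK4 and CDK6, and then E-type cyclins with CDK2, take a cell through G1 into S phase, while cyclin A with CDK2 and CDK1 serves S phase and G2, and cyclin B with CDK1 serves mitosis. The kinase is held back by inhibitor proteins and by phosphates that WEE1 and PKMYT1 add and the CDC25 phosphatases remove. A further set of cyclins and CDKs acts on RNA polymerase II and on splicing and does not follow the cell cycle.

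Each siRNA lowered its target. DDX19B was at 0.0643 of control under DBP5 siRNA, GLE1 at 0.102 under GLE1 siRNA and IPPK at 0.186 under IPPK siRNA. Targets also moved in other groups. DDX19B differed from control by -1.03 (log2) under GLE1 and -0.19 under IPPK siRNA, and IPPK by -1.25 under DBP5 and -0.28 under GLE1 siRNA. GLE1 differed by -0.48 under IPPK siRNA, and all of these were called lower. The difference of GLE1 under DBP5 siRNA, -0.35, was not called. Probes well above background made up 74.8% to 77.4% of all probes on the control arrays, 75.7% to 77.7% under DBP5, 73.4% to 77.0% under GLE1 and 70.9% to 73.8% under IPPK siRNA. Of 6 osteoblast markers, RUNX2, COL1A1, SPARC, ALPL and BGLAP were well above background on all 12 arrays, whereas COL1A2 was so on 3 control and 2 GLE1 arrays and on no other. Of 4 markers of blood, epithelial and endothelial cells, PTPRC, EPCAM and CDH5 were well above background on all 12 arrays and PECAM1 on 1 control and 3 GLE1 arrays. The summed normalized intensity of these 4 markers ran from 847 to 1042 on the control arrays, from 592 to 709 under DBP5, from 663 to 804 under GLE1 and from 479 to 693 under IPPK siRNA. The sum follows its brightest probe, that of EPCAM, and the 4 did not fall together. EPCAM was at 0.657, 0.735 and 0.528 of control with DBP5, GLE1 and IPPK siRNA and called lower with DBP5 and IPPK siRNA (limma adjusted p = 0.044 and 0.0055), PTPRC and CDH5 were called in no knock-down, and PECAM1 was called lower with IPPK siRNA alone (limma adjusted p = 0.024). MALAT1, a nuclear RNA, was well above background on all 12 arrays and read from 8.37 to 8.67 on the control arrays, 7.89 to 8.16 with DBP5, 7.64 to 8.54 with GLE1 and 7.16 to 7.91 with IPPK siRNA (normalized log2 intensity), at 0.474 of control with IPPK siRNA (limma adjusted p = 0.0035) and not called in the other two. The part of these markers in the results was not tested. On every slide the same array position held the same siRNA, so position and siRNA cannot be told apart.

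Most members fell, and the median of the members was lowest under GLE1 siRNA, though not every member was lowest there. By limma with Benjamini-Hochberg adjustment at 0.05 over all 20821 genes tested, 28 of 40 tested members were lower and 4 higher under DBP5 siRNA, where 27.5% of all genes tested were lower and 26.7% higher. Under GLE1 siRNA 30 were lower and 7 higher, against 31.5% and 30.6% of all genes. Under IPPK siRNA 21 were lower and 9 higher, against 28% and 27.3% of all genes. The median log2 difference of the members was -0.37 under DBP5 siRNA, -0.89 under GLE1 siRNA and -0.26 under IPPK siRNA, while that of all genes tested was -0.02, 0.01 and -0.03. All 3 knock-down arrays lay below all 3 control arrays for 29 members with DBP5, 30 with GLE1 and 22 with IPPK siRNA, against 30.6%, 34.6% and 32.8% of all genes, and above them for 4, 9 and 12, against 28.5%, 33.9% and 30.9%. The 41st member, CDKN2B, the gene of the inhibitor p15, was not well above background on any array and was not tested. The other 40 were well above background on all 12 arrays. Fewer cells in a phase and less RNA in each cell cannot be told apart in such bulk RNA.

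The 3 comparisons with control share the same 3 control arrays, so their values stand side by side here. A fall of at least 1.5-fold that passed the test was seen for 11 members under DBP5, 26 under GLE1 and 8 under IPPK siRNA, against 12.1%, 17.7% and 12.6% of all genes. The knock-downs were also compared with each other. Cells with GLE1 siRNA were lower than those with DBP5 siRNA in 24 members and higher in 8, where 28% and 26.5% of all genes passed. They were lower than those with IPPK siRNA in 29 and higher in 5, where 30.7% and 29.4% passed. Cells with DBP5 siRNA were lower than those with IPPK siRNA in 20 members and higher in 7, where 25.1% and 23.8% passed. For 5 of the 40 members, CCND1, CCND2, CDK6, CDK12 and SKP2, a pair of knock-downs was called in opposite directions against control and differed in the direct test, and 14% of all genes tested met the same rule, so the members' share was near that of all genes. CDK12 met the rule on its brightest probe alone, since its dimmer probe was called lower with IPPK siRNA and not called with DBP5 siRNA, and its DBP5 minus IPPK difference was called the other way there.

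**Figure D1:**
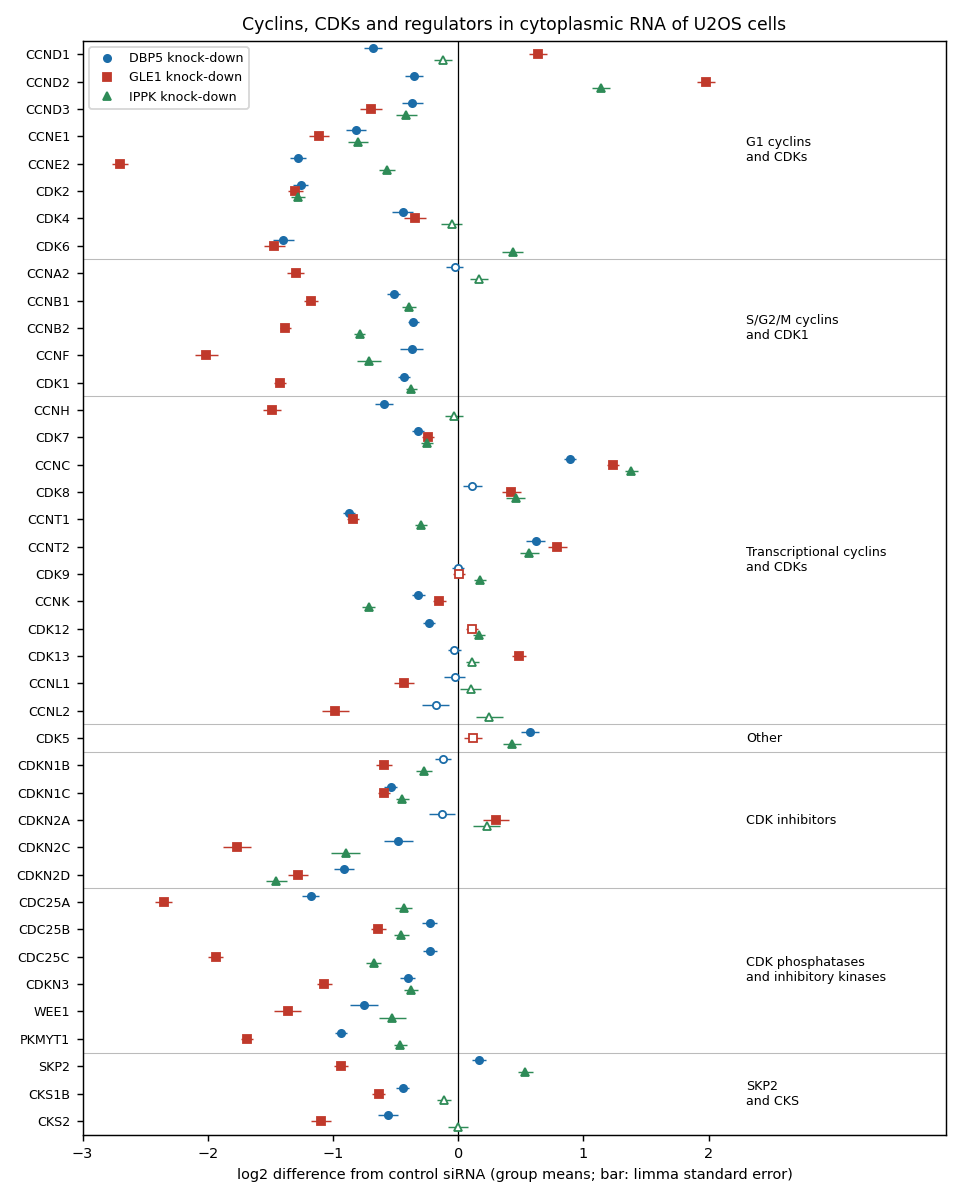
Log2 difference from control siRNA (x axis) of the 40 tested members (y axis, by class) for the DBP5 (circles), GLE1 (squares) and IPPK (triangles) knock-downs, each a difference of means of 3 arrays with its limma standard error. Filled symbols passed the test. GLE1 symbols lie left of the others in the S/G2/M class and among the phosphatases and inhibitory kinases, from -2.35 for CDC25A to -0.64 for CDC25B, while CCND2 lies at 1.98.

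Under GLE1 siRNA the G1 class held both the largest fall and the largest rise of the tested members, those of CCNE2 and CCND2. Under DBP5 siRNA 8 of 8 G1 members were lower, under GLE1 siRNA 6 were lower and 2 higher, and under IPPK siRNA 4 were lower, 2 higher and 2 not called. For this and each later class, the shares of all genes to read the counts against are 27.5% lower and 26.7% higher with DBP5, 31.5% and 30.6% with GLE1, and 28% and 27.3% with IPPK siRNA. The medians were -0.75 under DBP5 siRNA, -0.91 under GLE1 siRNA and -0.27 under IPPK siRNA. CCNE1 and CCNE2 encode the E-type cyclins of the G1/S transition. CCNE2, in normalized log2 intensity, read 10.24, 10.41 and 10.21 on the control arrays, 9.11, 8.93 and 8.97 under DBP5 siRNA, 7.59, 7.61 and 7.55 under GLE1 siRNA and 9.77, 9.69 and 9.68 under IPPK siRNA. The 4 groups did not overlap, with control highest and GLE1 lowest, and under GLE1 siRNA it stood at 0.154 ± 0.003 of control (mean ± SD over 3 arrays, limma adjusted p = 4.7e-10). The ratio was 0.412 ± 0.028 under DBP5 and 0.674 ± 0.021 under IPPK siRNA. Here and below a ratio is 2 to the power of the difference of mean log2 values, and the SD is taken over the 3 knock-down arrays against the control mean. CCNE1 read 15.71, 15.75 and 15.72 on the control arrays, 15.002, 14.83 and 14.90 under DBP5 siRNA, 14.74, 14.54 and 14.55 under GLE1 siRNA and 15.07, 14.87 and 14.83 under IPPK siRNA. All knock-down arrays of CCNE1 lay below all control arrays, and its ratios were 0.568 ± 0.035, 0.462 ± 0.037 and 0.573 ± 0.052 in the order DBP5, GLE1, IPPK. DBP5 and IPPK siRNA differed in CCNE1 by -0.01 ± 0.08 (log2, adjusted p = 0.91 by limma).

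CDK2, the partner of cyclin E and later of cyclin A, fell under each siRNA. Its normalized log2 intensity was 9.95, 9.94 and 9.91 on the control arrays, 8.61, 8.74 and 8.67 under DBP5 siRNA, 8.51, 8.70 and 8.67 under GLE1 siRNA and 8.62, 8.68 and 8.65 under IPPK siRNA. The knock-down groups overlapped each other and lay below every control array. The ratios were 0.418 ± 0.02, 0.406 ± 0.028 and 0.412 ± 0.008 in the same order, and no 2 knock-downs differed by the test (log2 difference of GLE1 from DBP5 -0.04 ± 0.06, of GLE1 from IPPK -0.02 ± 0.06 and of DBP5 from IPPK 0.02 ± 0.06).

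CDK6, a kinase of the D-type cyclins, fell under DBP5 and GLE1 siRNA and rose under IPPK siRNA. It read 14.12, 14.17 and 14.04 on the control arrays, 12.91, 12.63 and 12.59 under DBP5 siRNA, 12.74, 12.60 and 12.57 under GLE1 siRNA and 14.58, 14.52 and 14.52 under IPPK siRNA. The DBP5 and GLE1 arrays overlapped each other far below control, while the IPPK arrays lay above it. The ratios were 0.38 ± 0.047, 0.361 ± 0.023 and 1.35 ± 0.03, with limma adjusted p = 2.9e-07, 1.0e-07 and 0.0012. CDK4, the other kinase of the D-type cyclins, read 14.96, 14.81 and 15.06 on the control arrays, 14.33, 14.62 and 14.55 under DBP5 siRNA, 14.53, 14.63 and 14.63 under GLE1 siRNA and 14.81, 14.92 and 14.94 under IPPK siRNA. Its DBP5 and GLE1 arrays lay below control and overlapped each other, and its IPPK arrays overlapped control, with ratios of 0.735 ± 0.075, 0.787 ± 0.031 and 0.964 ± 0.048.

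The D-type cyclins couple growth signals to CDK4 and CDK6, and their 3 genes went different ways. CCND2 read 12.28, 12.26 and 12.30 on the control arrays, 12.03, 11.90 and 11.87 under DBP5 siRNA, 14.39, 14.20 and 14.20 under GLE1 siRNA and 13.54, 13.36 and 13.39 under IPPK siRNA. No 2 groups of CCND2 overlapped, with GLE1 highest, then IPPK, control and DBP5. Its ratio was 3.94 ± 0.3 under GLE1 siRNA (limma adjusted p = 4.3e-09), 2.21 ± 0.15 under IPPK and 0.784 ± 0.047 under DBP5 siRNA. CCND1 read 11.11, 10.96 and 11.17 on the control arrays, 10.32, 10.52 and 10.36 under DBP5 siRNA, 11.77, 11.70 and 11.68 under GLE1 siRNA and 10.97, 10.91 and 10.997 under IPPK siRNA. Its GLE1 arrays lay above and its DBP5 arrays below control, with ratios of 1.56 ± 0.052 and 0.625 ± 0.047, and the IPPK arrays overlapped control. CCND3 read 11.66, 11.48 and 11.64 on the control arrays, 11.12, 11.34 and 11.23 under DBP5 siRNA, 11.05, 10.83 and 10.81 under GLE1 siRNA and 11.26, 11.12 and 11.16 under IPPK siRNA. It was lower in every knock-down, with ratios of 0.776 ± 0.062, 0.617 ± 0.059 and 0.75 ± 0.036.

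**Figure D2:**
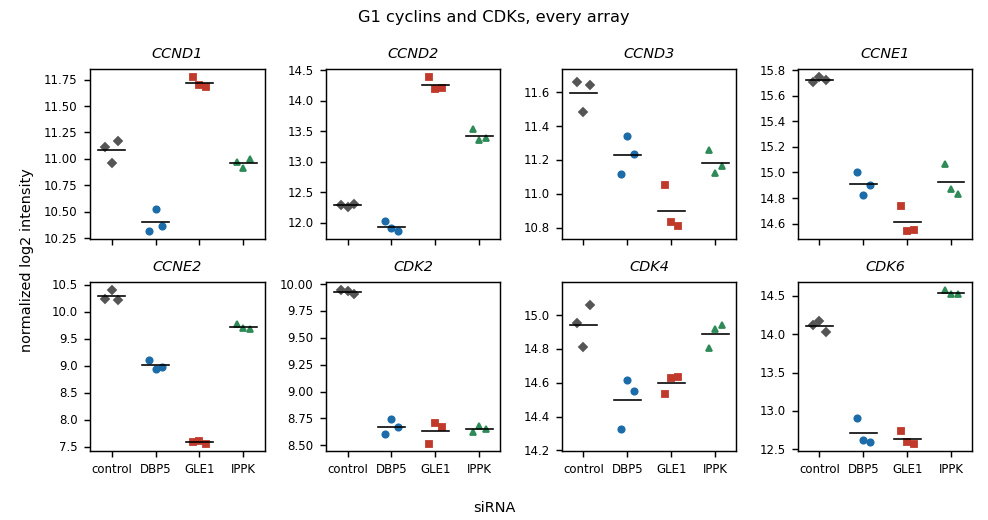
Normalized log2 intensity (y axis) of the 8 G1 cyclins and CDKs on each array, by siRNA (x axis), with the mean of 3 arrays as a line; the y axes differ between genes. CCND2 was highest and CCNE2 lowest on the GLE1 arrays, and CDK6 was low on the DBP5 and GLE1 arrays and high on the IPPK arrays.

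In the S/G2/M class, which drives DNA replication and mitosis, 5 of 5 members were lower under GLE1 siRNA and 4 of 5 under DBP5 and under IPPK siRNA. These counts are of brightest probes, and the dimmer probe of CCNB1 was called higher under IPPK siRNA. The medians were -0.37 under DBP5 siRNA, -1.38 under GLE1 siRNA and -0.39 under IPPK siRNA. In the direct tests 5 of 5 were lower under GLE1 than under DBP5 siRNA on their brightest probes, a call that the dimmer probe of CCNB1 did not give (GLE1 minus DBP5 -0.10 ± 0.09 on the log2 scale), and 5 of 5 than under IPPK siRNA. The shares of all genes lower in these direct tests were 28% and 30.7%. CCNA2, the S and G2 cyclin, was called against control under GLE1 siRNA alone. It read 12.38, 12.44 and 12.51 on the control arrays, 12.30, 12.55 and 12.38 under DBP5 siRNA, 11.07, 11.23 and 11.13 under GLE1 siRNA and 12.60, 12.63 and 12.59 under IPPK siRNA. The DBP5 arrays overlapped control, the IPPK arrays lay just above it and the GLE1 arrays lay far below. The ratio was 0.406 ± 0.023 under GLE1 siRNA (limma adjusted p = 7.2e-08), while DBP5 and IPPK siRNA differed from control by -0.03 ± 0.07 and 0.17 ± 0.07 (log2, adjusted p = 0.78 and 0.067). With the replicate number as a block, CCNA2 passed as higher under IPPK siRNA.

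Promoter sequences of members of these groups are shown because cell cycle genes are known to share short promoter elements, the E2F site of G1/S genes and the CCAAT box and cell cycle genes homology region (CHR) of G2/M genes. They come from RefSeq (GRCh38.p14) and run 5′ to 3′ on the gene's strand over the 150 bases before the annotated start, with matches in capitals. CCNB2, a mitotic B-type cyclin, is at chr15:59104996-59105145 on the plus strand, CDK1, the kinase of mitosis, at chr10:60778328-60778477 on the plus strand, CKS2, a small CDK-binding subunit, at chr9:89311045-89311194 on the plus strand, and CDC25A, a phosphatase that activates CDKs at G1/S, at chr3:48188418-48188567 on the minus strand. Where a gene had several starts, the one with most matches is shown.
CCNB2: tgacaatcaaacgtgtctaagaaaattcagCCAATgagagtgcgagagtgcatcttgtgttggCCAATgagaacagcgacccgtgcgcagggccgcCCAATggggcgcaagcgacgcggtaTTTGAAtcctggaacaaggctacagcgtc
CDK1: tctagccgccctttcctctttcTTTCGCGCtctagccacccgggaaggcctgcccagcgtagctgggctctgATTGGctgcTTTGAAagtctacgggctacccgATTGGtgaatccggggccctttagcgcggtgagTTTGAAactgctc
CKS2: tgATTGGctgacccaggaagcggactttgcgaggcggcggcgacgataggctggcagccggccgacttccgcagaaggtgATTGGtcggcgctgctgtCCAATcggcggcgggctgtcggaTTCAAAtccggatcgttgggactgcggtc
CDC25A: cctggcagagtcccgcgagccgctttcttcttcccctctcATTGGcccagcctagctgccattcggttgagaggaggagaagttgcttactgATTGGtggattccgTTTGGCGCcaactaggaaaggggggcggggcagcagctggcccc
The letters searched were TTTCCCGC, TTTCGCGC, TTTGCCGC and TTTGGCGC for E2F, TTTGAA and TTCGAA for CHR and CCAAT for the CCAAT box, each on both strands. Capitals mark CCAAT boxes beginning 120, 87 and 54 bases and a CHR beginning 29 bases before the start of CCNB2. In CDK1 they mark an E2F match at 128, CCAAT boxes at 78 and 46 and CHR matches at 69 and 13. In CKS2 they mark CCAAT boxes at 148, 70 and 52 and a CHR at 29, and in CDC25A CCAAT boxes at 110 and 58 and an E2F match at 44. Matches of different motifs did not overlap in the members' windows.

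Windows of 250 bases before to 50 after a start were on hand for 34 of the 41 members, 51 windows in all. CCAAT stood in 24 of them (47.1%), CHR in 11 (21.6%) and E2F in 3 (5.88%), against 34.6%, 16.4% and 3.31% of all 35116 promoter windows. The 6 windows of the S/G2/M class held a CCAAT box in 6, a CHR in 4 and an E2F match in 2. By gene, 5 of 5 had a CCAAT box, 3 of 5 (CCNB2, CCNF and CDK1) a CHR and 1 of 5, CDK1, an E2F match, since the windows of the 2 CDK1 starts overlap and hold the same E2F site. The 7 windows of the G1 class held a CCAAT box in 2 and neither other motif. The members not searched were CCND1, CCND2, CCNE2, CDK2, CDKN1C, WEE1 and PKMYT1. CCNC, which rose, also had a window with a CHR and a CCAAT box. These are matches of letters, without a test.

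CDK1 itself, whose promoter is printed above, read 14.07, 14.14 and 14.07 on the control arrays, 13.68, 13.63 and 13.68 under DBP5 siRNA, 12.64, 12.73 and 12.64 under GLE1 siRNA and 13.68, 13.75 and 13.73 under IPPK siRNA. Its control arrays lay above all others, its DBP5 and IPPK arrays lay together, and its GLE1 arrays were lowest, with ratios of 0.742 ± 0.015, 0.373 ± 0.013 and 0.771 ± 0.019 for DBP5, GLE1 and IPPK. CCNB2 read 15.18, 15.21 and 15.11 on the control arrays, 14.83, 14.80 and 14.80 under DBP5 siRNA, 13.81, 13.79 and 13.76 under GLE1 siRNA and 14.40, 14.34 and 14.40 under IPPK siRNA. No 2 groups of CCNB2 overlapped, in the order control, DBP5, IPPK and GLE1 from high to low, and its ratio under GLE1 siRNA was 0.384 ± 0.0066 (limma adjusted p = 1.9e-09).

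CCNF, the F-box protein of a ubiquitin ligase and so a cyclin without a kinase of its own, fell furthest in the class under GLE1 siRNA. It read 9.46, 9.56 and 9.53 on the control arrays, 8.95, 9.33 and 9.15 under DBP5 siRNA, 7.58, 7.50 and 7.43 under GLE1 siRNA and 8.69, 8.87 and 8.85 under IPPK siRNA. Its groups did not overlap between control, DBP5, IPPK and GLE1 in falling order, and the ratio under GLE1 siRNA was 0.248 ± 0.013 (limma adjusted p = 2.3e-08). CCNB1, the main mitotic cyclin, read 15.30, 15.38 and 15.29 on the control arrays, 14.79, 14.89 and 14.73 under DBP5 siRNA, 14.08, 14.19 and 14.17 under GLE1 siRNA and 14.92, 14.93 and 14.93 under IPPK siRNA. All its knock-down arrays lay below control, the GLE1 arrays lowest at 0.442 ± 0.018 of control, but its other probe passed as higher under IPPK siRNA.

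The phosphatases and inhibitory kinases that set CDK phosphorylation fell together. In each knock-down 6 of 6 were lower than control, with medians of -0.58 under DBP5 siRNA, -1.53 under GLE1 siRNA and -0.46 under IPPK siRNA. In the direct tests 6 of 6 were lower under GLE1 than under DBP5 siRNA, and 6 of 6 than under IPPK siRNA. Of all genes tested, 28% and 30.7% were lower in the same order. CDC25A read 12.24, 12.30 and 12.37 on the control arrays, 11.13, 11.17 and 11.07 under DBP5 siRNA, 10.11, 9.88 and 9.87 under GLE1 siRNA and 11.82, 11.89 and 11.90 under IPPK siRNA. Its groups did not overlap and ran from control through IPPK and DBP5 down to GLE1, with ratios of 0.739 ± 0.022, 0.442 ± 0.015 and 0.196 ± 0.018 (limma adjusted p under GLE1 siRNA 1.2e-09). CDC25C, which activates CDK1 at mitosis, read 9.71, 9.77 and 9.71 on the control arrays, 9.40, 9.57 and 9.54 under DBP5 siRNA, 7.88, 7.75 and 7.74 under GLE1 siRNA and 9.02, 9.09 and 9.05 under IPPK siRNA. Here DBP5 siRNA lay nearest to control, at 0.856 ± 0.053, IPPK followed at 0.626 ± 0.014 and GLE1 was lowest at 0.261 ± 0.014. CDC25B, the phosphatase that starts CDK1 activation in G2, had ratios of 0.853 ± 0.037, 0.643 ± 0.049 and 0.729 ± 0.02 for DBP5, GLE1 and IPPK.

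WEE1 and PKMYT1, which oppose the CDC25 phosphatases by phosphorylating CDK1, fell as well. WEE1 read 11.63, 11.61 and 11.65 on the control arrays, 10.73, 10.97 and 10.92 under DBP5 siRNA, 10.22, 10.33 and 10.24 under GLE1 siRNA and 10.81, 11.26 and 11.24 under IPPK siRNA. The first IPPK array of WEE1 lay within the DBP5 range and the other two above it, while all knock-down arrays lay below control. The ratios were 0.593 ± 0.05, 0.389 ± 0.015 and 0.695 ± 0.11 for DBP5, GLE1 and IPPK. PKMYT1 read 14.90, 14.88 and 14.86 on the control arrays, 13.94, 14.03 and 13.86 under DBP5 siRNA, 13.21, 13.17 and 13.21 under GLE1 siRNA and 14.45, 14.42 and 14.39 under IPPK siRNA. Its groups did not overlap, with control highest, then IPPK, DBP5 and GLE1, and the ratio was 0.311 ± 0.005 under GLE1 siRNA (limma adjusted p = 1.4e-09). CDKN3, a phosphatase that removes the activating phosphate of CDKs, was at 0.757 ± 0.036, 0.477 ± 0.014 and 0.77 ± 0.014 of control.

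**Figure D3:**
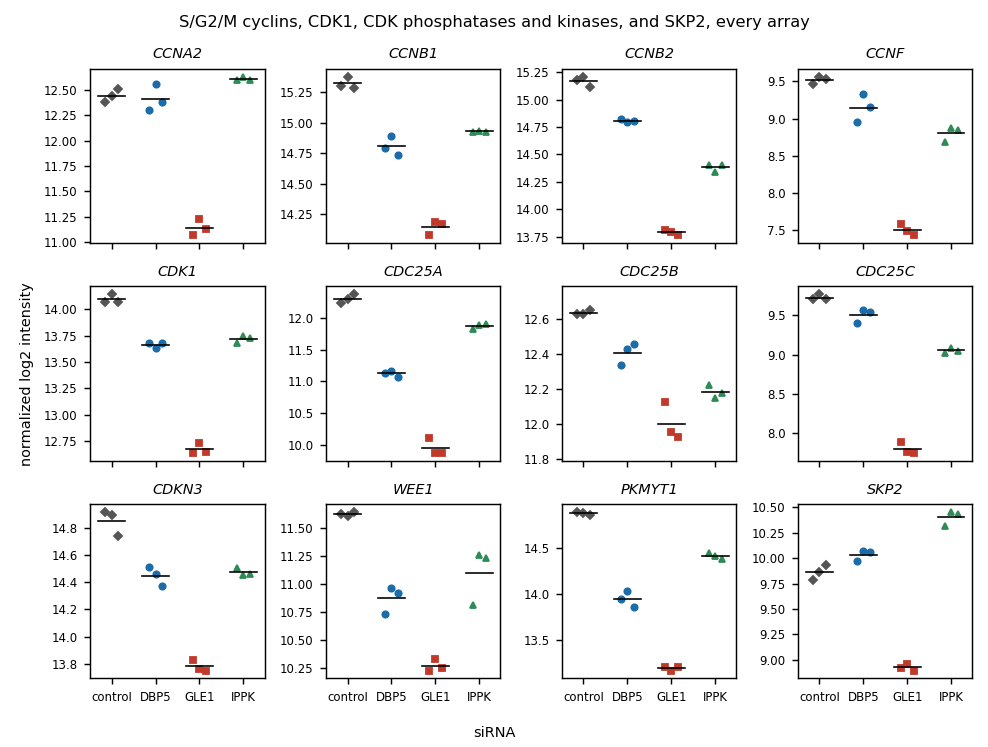
Normalized log2 intensity (y axis) on each array, by siRNA (x axis), of the 5 S/G2/M members, the 6 CDK phosphatases and inhibitory kinases and SKP2, with the mean of 3 arrays as a line; the y axes differ between genes. The GLE1 arrays were lowest in all 12 panels, and SKP2 was highest on the IPPK arrays.

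SKP2, the F-box protein that marks the inhibitor p27 for destruction, took opposite directions. It read 9.79, 9.87 and 9.94 on the control arrays, 9.97, 10.07 and 10.06 under DBP5 siRNA, 8.92, 8.96 and 8.90 under GLE1 siRNA and 10.32, 10.45 and 10.43 under IPPK siRNA. The GLE1 arrays of SKP2 lay below control, and the DBP5 and IPPK arrays above it. The ratio was 0.523 ± 0.012 under GLE1 siRNA (limma adjusted p = 1.8e-07) and 1.45 ± 0.071 under IPPK siRNA (adjusted p = 1.8e-05). The rise under DBP5 siRNA, 0.17 ± 0.06 (log2, limma adjusted p = 0.03), no longer passed without control replicate 1 (0.13), control replicate 2 (0.17), DBP5 replicate 2 (0.15) or DBP5 replicate 3 (0.15), under quantile normalization (0.15), with only the 6 arrays compared (0.17) or by the methods' t-test with adjustment. CKS1B and CKS2 encode the small subunits that bind CDKs, CKS1B also as the cofactor of SKP2. CKS2, whose promoter is printed above, read 16.12, 16.23 and 16.02 on the control arrays, 15.63, 15.67 and 15.38 under DBP5 siRNA, 15.08, 15.02 and 14.97 under GLE1 siRNA and 16.11, 16.15 and 16.11 under IPPK siRNA. Its IPPK arrays lay within the control range and its GLE1 arrays were lowest, with ratios of 0.677 ± 0.072 under DBP5 and 0.467 ± 0.018 under GLE1 siRNA. CKS1B was at 0.735 ± 0.045 and 0.644 ± 0.019 of control under DBP5 and GLE1 siRNA and at 0.923 ± 0.013 under IPPK siRNA, the last not called on its brightest probe.

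Of the 5 CDK inhibitors tested, 3 were lower under DBP5, 4 under GLE1 and 4 under IPPK siRNA, against 27.5%, 31.5% and 28% of all genes, and 1, CDKN2A, was higher under GLE1 siRNA, against 30.6%. The medians were -0.48 under DBP5 siRNA, -0.59 under GLE1 siRNA and -0.45 under IPPK siRNA. CDKN2C and CDKN2D encode p18 and p19, inhibitors of CDK4 and CDK6. CDKN2C read 11.66, 11.69 and 11.67 on the control arrays, 11.04, 11.24 and 11.32 under DBP5 siRNA, 9.94, 9.997 and 9.78 under GLE1 siRNA and 10.50, 10.89 and 10.94 under IPPK siRNA. Its GLE1 arrays were lowest and its control arrays highest, with no overlap of any 2 groups, and the ratio under GLE1 siRNA was 0.294 ± 0.022 (limma adjusted p = 2.8e-07). CDKN2D read 13.59, 13.69 and 13.49 on the control arrays, 12.86, 12.64 and 12.54 under DBP5 siRNA, 12.38, 12.28 and 12.27 under GLE1 siRNA and 12.15, 12.12 and 12.14 under IPPK siRNA. It was lowest under IPPK siRNA, at 0.365 ± 0.0045 of control, though this did not differ from GLE1 siRNA by the test (GLE1 minus IPPK 0.17 ± 0.08 on the log2 scale).

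CDKN1B and CDKN1C encode p27 and p57, inhibitors of a broad range of CDKs. CDKN1B was at 0.664 ± 0.03 of control under GLE1 and 0.829 ± 0.033 under IPPK siRNA, and its difference under DBP5 siRNA was -0.12 ± 0.06 (log2, not called). CDKN1C was at 0.689 ± 0.019, 0.663 ± 0.018 and 0.733 ± 0.039 of control for DBP5, GLE1 and IPPK, and passed as lower in each. CDKN2A, which encodes p16 and the p53 regulator ARF from different first exons, read 10.18, 10.11 and 10.14 on the control arrays, 10.13, 9.88 and 10.03 under DBP5 siRNA, 10.29, 10.37 and 10.68 under GLE1 siRNA and 10.50, 10.28 and 10.33 under IPPK siRNA on its brightest probe. The third GLE1 array stood above the other two, and the rise of 0.30 ± 0.10 (log2, limma adjusted p = 0.028) no longer passed without GLE1 replicate 3 (0.19), control replicate 2 (0.28) or control replicate 3 (0.30). The other probe of CDKN2A was well above background on 3 arrays each of control, DBP5 and GLE1 and on 1 IPPK array, and passed in no comparison with control.

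The transcriptional class showed no common direction. Of 12 members, 5 were lower and 2 higher under DBP5, 6 and 4 under GLE1, and 3 and 5 under IPPK siRNA. Of all genes 27.5% and 26.7%, 31.5% and 30.6%, and 28% and 27.3% were lower and higher in the same order, so that several of these counts, such as 3 of 12 lower with IPPK and 4 of 12 higher with GLE1 siRNA, lay near the share of all genes. The medians were -0.11 under DBP5 siRNA, -0.07 under GLE1 siRNA and 0.14 under IPPK siRNA. CCNC and CDK8 form the kinase module of Mediator, the bridge between transcription factors and RNA polymerase II. CCNC read 10.40, 10.42 and 10.50 on the control arrays, 11.32, 11.28 and 11.39 under DBP5 siRNA, 11.71, 11.70 and 11.62 under GLE1 siRNA and 11.82, 11.83 and 11.82 under IPPK siRNA. All knock-down arrays of CCNC lay above control, IPPK highest, with ratios of 1.86 ± 0.072, 2.36 ± 0.074 and 2.61 ± 0.0079 (limma adjusted p = 1.5e-07, 7.2e-09 and 6.6e-09). CDK8 was at 1.34 ± 0.022 and 1.38 ± 0.11 of control under GLE1 and IPPK siRNA, and its difference under DBP5 siRNA was 0.11 ± 0.07 (log2, not called).

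CCNH and CDK7 form the CDK-activating kinase that is also part of TFIIH. CCNH read 13.59, 13.72 and 13.57 on the control arrays, 13.13, 13.01 and 12.96 under DBP5 siRNA, 12.17, 12.09 and 12.16 under GLE1 siRNA and 13.73, 13.51 and 13.54 under IPPK siRNA. Its IPPK arrays overlapped control, its DBP5 arrays lay below and its GLE1 arrays lowest, at 0.357 ± 0.011 of control (limma adjusted p = 3.3e-08). CDK7 was at 0.801 ± 0.021, 0.846 ± 0.027 and 0.841 ± 0.014 of control, lower in each, and no 2 knock-downs differed by the test.

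CCNT1 and CCNT2 are the alternative cyclins of CDK9 in P-TEFb, which releases paused polymerase, and their brightest probes went opposite ways. CCNT1 read 10.55, 10.52 and 10.55 on the control arrays, 9.70, 9.72 and 9.59 under DBP5 siRNA, 9.69, 9.70 and 9.71 under GLE1 siRNA and 10.29, 10.24 and 10.18 under IPPK siRNA. All knock-down arrays lay below control, DBP5 and GLE1 at 0.547 ± 0.026 and 0.56 ± 0.0024 and IPPK at 0.813 ± 0.03 of control. CCNT2 read 7.43, 7.57 and 7.58 on the control arrays, 8.15, 8.23 and 8.06 under DBP5 siRNA, 8.22, 8.37 and 8.36 under GLE1 siRNA and 7.98, 8.11 and 8.19 under IPPK siRNA. All knock-down arrays lay above control, at 1.54 ± 0.094, 1.73 ± 0.1 and 1.48 ± 0.11. CDK9 itself was at 0.997 ± 0.026 of control under DBP5 siRNA, differed by 0.01 ± 0.05 (log2) under GLE1 siRNA and passed as higher under IPPK siRNA alone, at 1.13 ± 0.019 (adjusted p = 0.0095 by limma).

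CCNK, the cyclin of CDK12 and CDK13, read 11.28, 11.28 and 11.37 on the control arrays, 10.92, 11.09 and 10.97 under DBP5 siRNA, 11.16, 11.13 and 11.19 under GLE1 siRNA and 10.58, 10.60 and 10.62 under IPPK siRNA on its brightest probe. It was lowest under IPPK siRNA, at 0.609 ± 0.0088 of control, and differed there from the other two (limma adjusted p = 5.6e-06 against GLE1 and 1.3e-04 against DBP5). On its dimmer probe neither of these differences was called (GLE1 minus IPPK 0.42 ± 0.18 and DBP5 minus IPPK 0.12 ± 0.18, log2). The fall of CCNK under GLE1 siRNA, -0.15 ± 0.05 (log2), was not called without control replicate 3 (-0.12), GLE1 replicate 1 (-0.15) or GLE1 replicate 2 (-0.14). CDK13 passed as higher under GLE1 siRNA, at 1.4 ± 0.077 of control. CDK12, on its brightest probe, was at 0.852 ± 0.031 of control under DBP5 and 1.12 ± 0.033 under IPPK siRNA, and the latter call was lost without control replicate 3 (0.14, log2) or IPPK replicate 3 (0.16). Under GLE1 siRNA CDK12 differed by 0.11 ± 0.05 (log2, not called) and passed without control replicate 2 (0.14).

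CCNL1 and CCNL2, cyclins tied to splicing, passed as lower under GLE1 siRNA on their brightest probes, at 0.741 ± 0.024 and 0.507 ± 0.0065 of control, and in no other comparison with control. CCNL2 passed as higher under IPPK siRNA without control replicate 2 (0.32, log2) or IPPK replicate 1 (0.38), against 0.25 ± 0.11 with all arrays. CDK5, a CDK of postmitotic neurons that stands outside these classes, was at 1.49 ± 0.15 of control under DBP5 and 1.35 ± 0.044 under IPPK siRNA, both called higher, and differed by 0.12 ± 0.07 (log2, not called) under GLE1 siRNA.

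**Figure D4:**
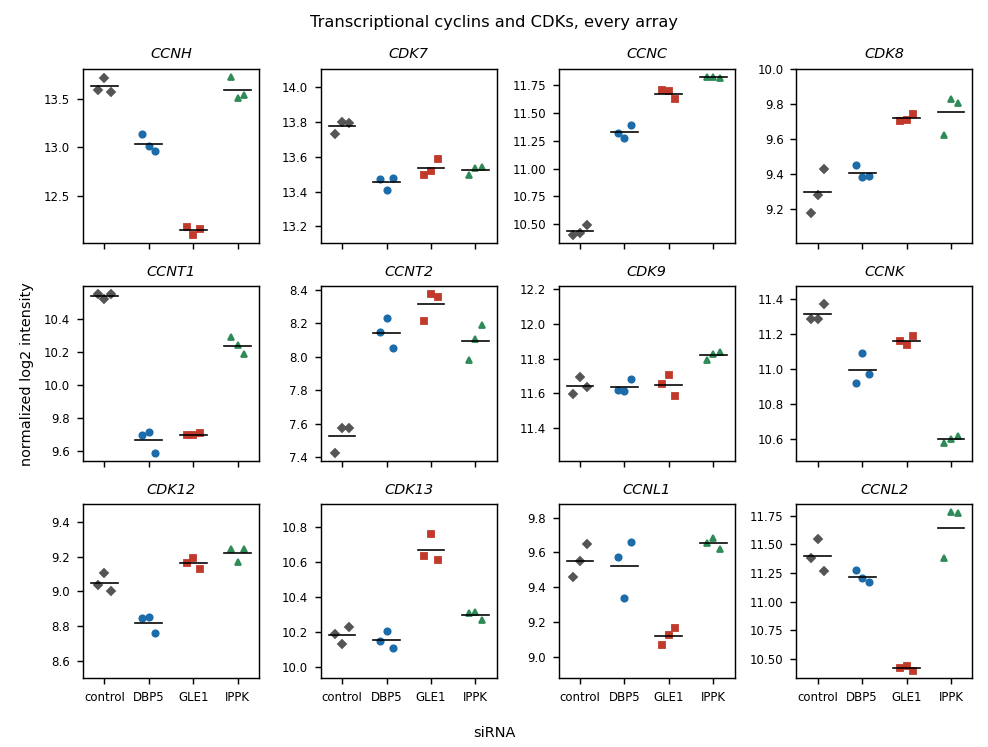
Normalized log2 intensity (y axis) of the brightest probe of the 12 transcriptional cyclins and CDKs on each array, by siRNA (x axis), with the mean of 3 arrays as a line; the y axes differ between genes. CCNC and CCNT2 lay above control in each knock-down and CCNT1 below it, while CCNH was low on the GLE1 and DBP5 arrays and overlapped control on the IPPK arrays.

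Different probes of a gene did not always give the same answer. Of 13 members with several kept probes, 10 differed between probes in their call against control and 3, CCNB1, CCNL2 and CDK12, had probes called in opposite directions in at least 1 knock-down. CDK12's dimmer probe differed from control by -1.12 ± 0.06 under GLE1 and -0.35 ± 0.06 under IPPK siRNA (log2), both called lower, and by -0.03 ± 0.06 under DBP5 siRNA (not called), where its brightest probe gave 0.11 ± 0.05, 0.17 ± 0.05 and -0.23 ± 0.05 in the same order. CCNB1's dimmer probe gave -0.27 ± 0.09, -0.37 ± 0.09 and 0.31 ± 0.09 for DBP5, GLE1 and IPPK, the last called higher.

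Of the 3 probes of CCNL2, the second was called lower and the third higher in each knock-down, and the brightest was called lower under GLE1 siRNA alone. Its second probe gave -0.66 ± 0.07, -0.54 ± 0.07 and -0.32 ± 0.07 for DBP5, GLE1 and IPPK, and the third 0.35 ± 0.07, 0.19 ± 0.07 and 0.24 ± 0.07. The dimmer probe of CCNT1 gave -0.22 ± 0.08, -0.16 ± 0.08 and 0.19 ± 0.08, called lower under DBP5 siRNA alone. The dimmer probe of CCNL1 was called lower under DBP5 siRNA (-0.31 ± 0.10) and not under GLE1 siRNA (-0.07 ± 0.10). CKS1B's dimmer probe was also called lower under IPPK siRNA (-0.25 ± 0.07), CCNK's was not called under GLE1 siRNA (-0.19 ± 0.18), CDK8's was not called under GLE1 or IPPK siRNA (0.29 ± 0.13 and 0.29 ± 0.13), and 1 of the 2 dimmer CDK13 probes was not called under GLE1 siRNA (-0.06 ± 0.11). The probes of CCNE2, CDKN1B and CDKN3 had the same calls. In the direct tests the probes differed in their call for 9 of the 13 members in GLE1 against DBP5, 6 in GLE1 against IPPK and 8 in DBP5 against IPPK siRNA.

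**Figure D5:**
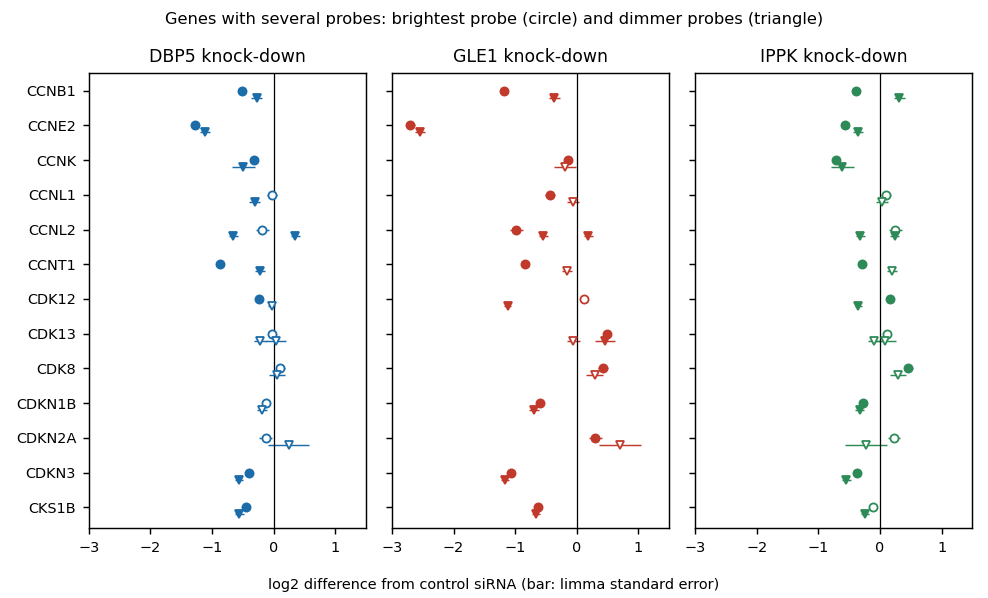
Log2 difference from control siRNA (x axis) with its limma standard error for each kept probe of the 13 members with several (y axis), the brightest as a circle and dimmer ones as triangles, in the DBP5, GLE1 and IPPK knock-downs; filled symbols passed the test. The CCNE2, CDKN1B and CDKN3 probes lie together, while those of CCNL2, CDK12 and CCNB1 are apart.

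Other genes of the same machinery, on lists set apart from the members, are given beside the same shares of all genes as above (27.5% lower and 26.7% higher with DBP5, 31.5% and 30.6% with GLE1, 28% and 27.3% with IPPK siRNA). Of 17 other cyclins and CDKs tested, 1 was lower and 8 higher under DBP5, 7 and 7 under GLE1, and 4 and 9 under IPPK siRNA, with medians of 0.09 under DBP5 siRNA, 0.02 under GLE1 siRNA and 0.29 under IPPK siRNA. CDK16, a kinase of the PCTAIRE family, had the largest rise on this list in each knock-down against the same 3 control arrays, at 8.23 ± 0.47, 9.77 ± 0.22 and 8.32 ± 0.13 of control (limma adjusted p = 7.5e-10, 2.0e-10 and 4.8e-10). CCNB3, another B-type cyclin, had the largest fall under DBP5 (-0.39 ± 0.06, log2) and GLE1 siRNA (-2.23 ± 0.06), and CCNG2, an unconventional cyclin, under IPPK siRNA (-1.12 ± 0.07).

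Of 11 CDK partners and inhibitors outside the members, 2 were lower and 4 higher under DBP5, 5 and 4 under GLE1, and 3 and 5 under IPPK siRNA, with medians of -0.14 under DBP5 siRNA, -0.31 under GLE1 siRNA and 0.16 under IPPK siRNA. CDKN1A, the p53 target gene of the inhibitor p21, had the largest rise under GLE1 siRNA, at 4.14 ± 0.43 of control (limma adjusted p = 6.4e-09), and under IPPK siRNA at 1.61 ± 0.02. It was at 1.5 ± 0.074 under DBP5 siRNA, where CABLES2 rose most (1.004 ± 0.08, log2). The largest falls were those of MED13, a Mediator subunit, under DBP5 siRNA (-0.85 ± 0.07), CDK2AP2, a CDK2-associated protein, under GLE1 siRNA (-1.004 ± 0.05) and MNAT1, a further subunit of the CDK-activating kinase, under IPPK siRNA (-0.96 ± 0.15).

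Of 21 genes of the ubiquitin ligases that destroy cyclins and inhibitors, 8 were lower and 7 higher under DBP5, 12 and 4 under GLE1, and 7 and 10 under IPPK siRNA, with medians of -0.06 under DBP5 siRNA, -0.23 under GLE1 siRNA and 0.10 under IPPK siRNA. UBE2C, the ubiquitin-conjugating enzyme of the anaphase-promoting complex, fell most under GLE1 siRNA, to 0.355 ± 0.0062 of control (limma adjusted p = 2.9e-09). FBXW7, which marks cyclin E, fell most under DBP5 siRNA (-0.81 ± 0.06, log2), and FBXO5, an inhibitor of the anaphase-promoting complex, under IPPK siRNA (-0.69 ± 0.08). BTRC, an F-box protein that marks WEE1 and CDC25A, rose most under DBP5 siRNA (1.47 ± 0.06), and CDC34, a ubiquitin-conjugating enzyme, under GLE1 (1.39 ± 0.06) and IPPK siRNA (1.02 ± 0.06).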

How the data were processed

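Cytoplasmic RNA of U2OS cells was hybridised to 12 one-colour Agilent arrays on 3 slides, each with 1 array of each siRNA. Groups were taken from the labels. The authors deposited Feature Extraction 10.7.3.1 output for each array, with a linear intensity after background subtraction, and a series table of processed log2 values, described in the methods as normalized by LOESS, whose columns had medians from 7.75 to 7.76 and followed the log2 median spot intensity (r at least 0.9998). Here the background-subtracted intensity was put on the log2 scale, spots marked as outliers (169 to 358 an array) and controls were left out, spots of a probe were averaged and arrays were normalized by cyclic loess. No spot was saturated.

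Probes were named by their accessions through a RefSeq gene table (GRCh38.p14; the array design names hg19), which gave a name to 26445 of 34127 probes (77.49%) and was used for names alone. The brightest probe stood for a gene. A gene was kept if all 3 arrays of any group were well above background, which left 20821, of which 18420 passed on all 12 arrays. Group means over all 12 arrays were compared in limma 3.58.1 (R 4.3.3) with Benjamini-Hochberg adjustment in each of 6 comparisons at 0.05, and scripts were tested on simulated data. Tables and figures were made with Python 3.11.15, pandas 2.3.3, numpy 2.4.6 and matplotlib 3.10.9. The number of arrays and the signal over background limit the precision. The p-values rest on the spread between arrays of the same siRNA, pooled over the 4 groups and moderated across genes by limma.

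The replicate number was the slide. Deviations from the group means correlated between arrays of the same number (r from 0.318 to 0.513, 18 pairs), so the numbers pair the arrays. Values between other arrays (-0.285 to -0.050, 36 pairs) are drawn negative by centring each group on its mean and add no evidence. The main fit did not use the pairing. The text names all 41 members, the targets, the largest called rise and fall on each related list in each comparison with control, and further probes of a member that differed from the brightest. The members and lists were chosen with earlier results of these data known. Alternatives were other normalizations (75th percentile, quantile), normexp background correction with an offset of 50, and the authors' processed values. Further ones were other filters, other uses of several probes, a replicate block, only the arrays compared, a paired t-test and leaving out each array. The paired t-test, called the methods' t-test here, is named in the methods' statistics section. For the arrays the methods name rank-product lists instead, and the Benjamini-Hochberg adjustment of the t-test was added here.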

Additional observations from a re-analysis of the deposited data

Results flagged for a closer look

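Of the 40 tested members, 5 were called in opposite directions by different knock-downs against control, with the difference between those knock-downs also passing limma's test, where 14% of all 20821 genes tested met the same rule. CCND1 was higher under GLE1 than under DBP5 siRNA by 1.32 on the log2 scale (adjusted p = 1.2e-07). CCND2 was higher under GLE1 than under DBP5 siRNA by 2.33 (adjusted p = 4.2e-09), and its DBP5 minus IPPK difference was -1.49 (adjusted p = 1.0e-07). For CDK6 the GLE1 minus IPPK difference was -1.90 (adjusted p = 2.3e-08) and the DBP5 minus IPPK difference -1.83 (adjusted p = 8.3e-08). For SKP2 the GLE1 minus DBP5 difference was -1.10 (adjusted p = 1.0e-07) and the GLE1 minus IPPK difference -1.47 (adjusted p = 1.1e-08). For CDK12 the DBP5 minus IPPK difference was -0.40 on the brightest probe (adjusted p = 7.4e-05), while on the dimmer probe the same difference was 0.32 ± 0.06 and called the other way.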

How the results depend on the processing

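The counts of members lower and higher stayed within 1.5 times the values in the report under the alternatives run, other than those that follow. Under the methods' paired t-test with adjustment, 17 members were lower and 1 higher under DBP5 siRNA. Of CCNC, CCNT2, SKP2 and CDK5, called higher under DBP5 siRNA in the report, only 1 kept that call. By the same t-test 5 members were higher under GLE1 than under DBP5 siRNA, and 11 were lower and 2 higher under DBP5 than under IPPK siRNA. Where every probe of a gene had to pass, 4 members were higher under GLE1 siRNA, 3 higher under GLE1 than under DBP5 siRNA and 3 higher under GLE1 than under IPPK siRNA. Each of these counts was smaller than in the report, and the cause was not tested.

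With 1 array left out, members lower ranged from 28 to 28 under DBP5, 29 to 30 under GLE1 and 21 to 21 under IPPK siRNA, and members higher from 3 to 4, 6 to 7 and 8 to 10. Between knock-downs the ranges were 23 to 24 lower and 7 to 9 higher for GLE1 against DBP5, 25 to 29 and 4 to 5 for GLE1 against IPPK, and 18 to 20 and 7 to 8 for DBP5 against IPPK.

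With the replicate block, 28, 30 and 21 members were lower and 4, 7 and 10 higher under DBP5, GLE1 and IPPK siRNA. The added call was CCNA2 under IPPK siRNA (0.17, log2). Between knock-downs the block added CCNT2 (GLE1 minus DBP5, 0.17) and lost CDK13 (DBP5 minus IPPK, -0.14), and it changed no other member's call.

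Among differences called in the report or under the alternative, only the use of several probes turned a direction. Turns of sign where neither was called were not counted. With the mean of a gene's probes CDK12 was at -0.51 under GLE1 and -0.092 under IPPK siRNA, and -0.37 for GLE1 minus DBP5, and CDKN2A was at 0.061 for DBP5 minus IPPK. The same -0.092, -0.37 and 0.061 stand, uncalled, where every probe had to pass. The cause was not tested. Scaling to the 75th percentile shifted the median difference of all genes by at most 0.05 (log2) from the value in the report.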
